A study of Homo sapiens with 6 samples.

Results

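The S100 and cornified envelope genes were taken from RNA-seq of BT549 cells as every row of the gene table whose symbol begins with S100 followed by A, B, G, P or Z, with SPRR, or with LCE and a number, plus PI3, SLPI, SBSN, IVL, LOR, FLG, TGM1, CSTA, CNFN and RPTN. This gave 61 of 23346 genes: 21 S100 genes, S100PBP, 11 small proline-rich (SPRR) genes, 18 late cornified envelope (LCE) genes, 6 other envelope or filament genes, 3 protease inhibitors and the crosslinking enzyme gene TGM1. S100PBP meets the rule by its symbol alone, as it encodes a protein that binds S100P and is not itself an S100 protein. The rule goes by symbol, but the family was selected on fold changes between these same libraries that were already known, so its changes between the groups are given as a description.

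BT549 is an established, mesenchymal breast cancer cell line, labelled as wild type in all samples. Cells were transfected with 20 nM of a negative control siRNA (NC siRNA, 3 libraries) or of BNC2 siRNA (3 libraries), and RNA was prepared 6 d later. The BNC2 siRNA was a mixture of 3 siRNAs against BNC2, which encodes the zinc finger protein basonuclin-2, and no other cell line or untransfected group was analysed here. The libraries held between 16093978 and 18246254 counts on genes, so that 3 counts corresponded to 0.168–0.191 CPM (counts scaled to a common library size). The BNC2 transcript was at 65.6, 51.4 and 58.5 CPM with NC siRNA and at 35.4, 36.5 and 41.5 CPM with BNC2 siRNA (log2 fold change -0.63 ± 0.09, SE, n = 3 in each group).

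S100 proteins are small EF-hand proteins that mostly bind calcium, form dimers and act on partner proteins inside the cell, and several are also released and bind receptors such as RAGE. The cornified envelope is the protein shell that replaces the plasma membrane of the outermost keratinocytes. Transglutaminases build it by crosslinking involucrin (IVL), loricrin (LOR), SPRR and LCE proteins, S100 proteins and protease inhibitors such as elafin (PI3). Most of these genes lie side by side on chromosome 1q21 in the epidermal differentiation complex, whose S100 genes are used in many tissues, whereas its SPRR and LCE genes belong to stratified epithelium.

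Of the 61 members, 12 passed the filter on low counts (over 1 CPM in at least 3 of the 6 libraries) and 49 did not. In BNC2 siRNA cells 8 of the 12 were lower and 1 was higher at an adjusted p of at most 0.05 in edgeR's quasi-likelihood test over 12186 genes, and 3 were not called. Across all genes tested 72.9% were called, 36.6% upward and 36.2% downward, so a called gene was the usual outcome in this comparison. The BNC2 siRNA libraries were all lower for 8 members, all higher for 1 and overlapped for 3, where 74.9% of all genes did not overlap (37.2% lower and 37.7% higher). The 8 include PI3 and SBSN, which passed the filter through the NC siRNA libraries alone. These were also the members at least 2-fold lower, a class that held 10.1% of all genes tested, and since the family was selected on this contrast nothing is read from these counts. No member was called and at least 2-fold higher, against 8.07% of all genes. The median log2 fold change was -0.56 over the 12 members and 0.001 over all genes tested, with PI3 and SBSN included in the former. As the measurements come from bulk RNA, fewer cells of a type and less RNA per cell cannot be told apart.

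**Figure D1:**
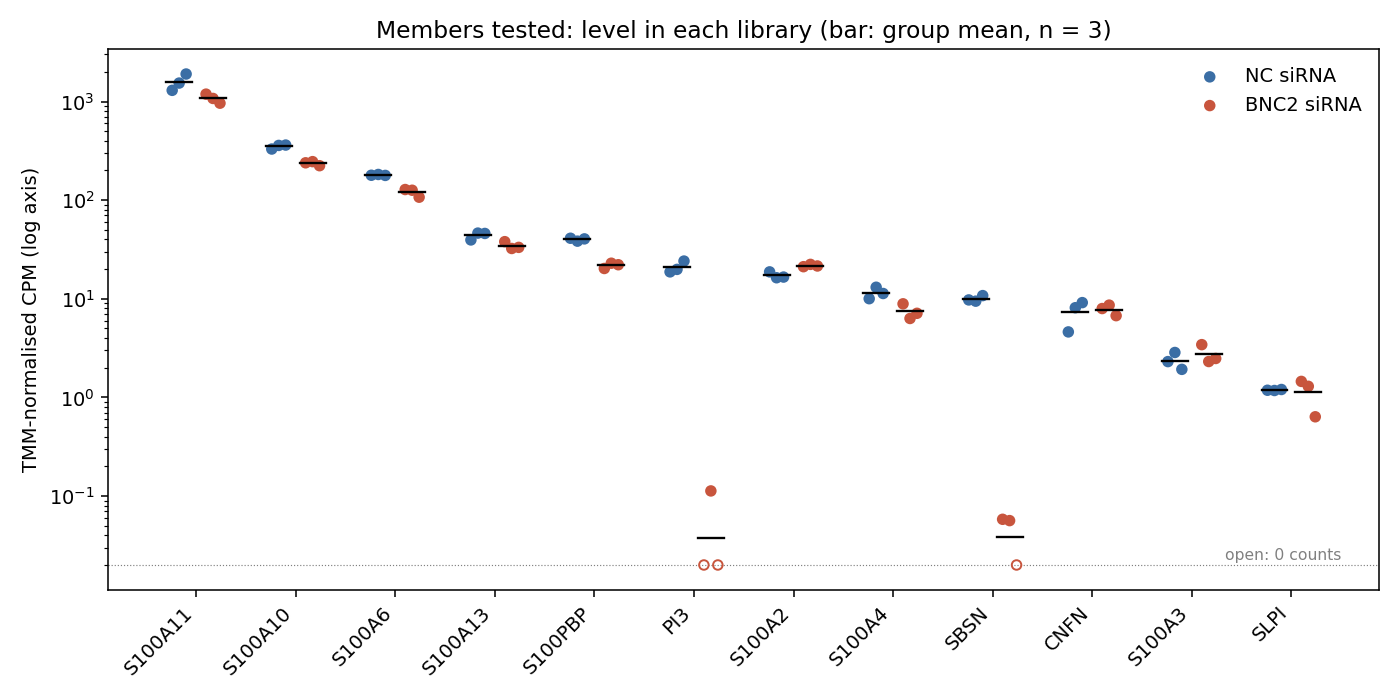
TMM-normalised CPM (log axis) of the 12 members tested, with 1 point per library, blue for NC siRNA and red for BNC2 siRNA, a bar at each group mean, and open points at the foot for libraries with 0 counts. PI3 and SBSN fall from between 9.46 and 24.1 CPM to at most 0.113 CPM, while S100A11, S100A10 and S100A6 stay the highest members in both groups.

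Promoter sequences are shown here for 5 members whose behaviour differed. They are the 250 bases before the RefSeq start site on GRCh38.p14, read 5′ to 3′ on the gene's own strand. SBSN was nearly lost with BNC2 siRNA, S100A2 was the member that was higher, S100A4 and S100A10 were lower, and S100A7, which encodes psoriasin, was at 0 counts in all 6 libraries. Capitals mark the letters TGANTCA, here with C or G at N as in the AP-1 consensus, in SBSN and S100A2. In S100A4 and S100A7 they mark the TATA box letters TATAAA. The windows are chr19:35528312-35528561 for SBSN, chr1:153565845-153566094 for S100A2 (the upstream one of its start sites), chr1:153545807-153546056 for S100A4, chr1:151993860-151994109 for S100A10 and chr1:153460652-153460901 for S100A7, all on the minus strand.
SBSN: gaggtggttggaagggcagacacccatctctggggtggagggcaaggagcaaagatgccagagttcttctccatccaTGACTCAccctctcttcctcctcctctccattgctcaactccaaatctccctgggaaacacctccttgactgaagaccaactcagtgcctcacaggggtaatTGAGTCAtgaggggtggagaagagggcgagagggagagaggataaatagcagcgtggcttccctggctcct
S100A2: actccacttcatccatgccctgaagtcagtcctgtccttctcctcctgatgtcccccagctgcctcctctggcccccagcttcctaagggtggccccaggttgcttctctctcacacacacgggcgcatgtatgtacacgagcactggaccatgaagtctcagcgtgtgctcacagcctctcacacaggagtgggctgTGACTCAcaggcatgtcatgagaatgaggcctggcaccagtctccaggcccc
S100A4: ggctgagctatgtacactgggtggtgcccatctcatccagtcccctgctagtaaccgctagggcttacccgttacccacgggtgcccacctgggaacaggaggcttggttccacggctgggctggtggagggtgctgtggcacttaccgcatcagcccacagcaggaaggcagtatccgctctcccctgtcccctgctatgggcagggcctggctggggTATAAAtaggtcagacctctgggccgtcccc
S100A10: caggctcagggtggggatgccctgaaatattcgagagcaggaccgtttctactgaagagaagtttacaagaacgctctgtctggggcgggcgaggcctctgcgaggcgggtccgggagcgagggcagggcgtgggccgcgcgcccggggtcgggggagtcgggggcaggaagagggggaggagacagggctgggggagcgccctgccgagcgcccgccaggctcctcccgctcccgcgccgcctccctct
S100A7: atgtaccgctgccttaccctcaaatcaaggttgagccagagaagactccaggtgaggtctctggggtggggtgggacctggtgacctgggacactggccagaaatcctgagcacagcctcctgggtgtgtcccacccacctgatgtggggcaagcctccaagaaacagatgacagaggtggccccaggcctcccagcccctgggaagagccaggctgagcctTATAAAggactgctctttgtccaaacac

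The protease inhibitor PI3 (chr20:43803543-43805185 on GRCh37, the build of the counts) was nearly lost in BNC2 siRNA cells. PI3 encodes elafin, a secreted elastase inhibitor that transglutaminases can anchor to the envelope. It was at 18.7, 19.9 and 24.1 CPM (333, 355 and 401 counts) with NC siRNA, and at 0, 0.113 and 0 CPM (0, 2 and 0 counts) with BNC2 siRNA. The groups were far apart, and 2 of the 3 BNC2 siRNA libraries held no PI3 read. Summed over libraries and scaled by library size, 1089 counts against 2 is a ratio of 528, leaving 0.189% of the NC siRNA level. The 95% exact counting interval, 146 to 4360, covers counting error but not the spread between libraries. As the family was selected on this contrast, this interval is a description and not a test. SLPI (chr20:43880880-43883205), a related inhibitor of leukocyte proteases from the same gene cluster, was not called. It was at 1.18, 1.18 and 1.2 CPM with NC siRNA and at 1.45, 1.3 and 0.636 CPM with BNC2 siRNA (log2 fold change -0.06 ± 0.31). Its BNC2 siRNA libraries lay on both sides of the NC siRNA libraries, and without BNC2 siRNA replicate 3 the value was 0.21. CSTA, which encodes cystatin A, an envelope-associated inhibitor of cysteine proteases, had between 1 and 9 counts in all and was not tested.

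Of the envelope proteins, SBSN (chr19:36014269-36019253) was also reduced to single reads. SBSN encodes suprabasin, a secreted protein of the suprabasal epidermis and a transglutaminase substrate. It was at 9.74, 9.46 and 10.8 CPM (173, 169 and 179 counts) with NC siRNA and at 0.0581, 0.0564 and 0 CPM (1, 1 and 0 counts) with BNC2 siRNA. All NC siRNA libraries were far above all BNC2 siRNA libraries, with at most 1 read in a BNC2 siRNA library. The ratio of 521 to 2 counts was 253 (95% exact counting interval 69.6 to 2090), which leaves 0.396%. The intervals of PI3 and SBSN cover counting error only and are likewise no test. They overlap widely, so the order of the 2 genes is not resolved at this depth. When any 1 NC siRNA library was left out, neither PI3 nor SBSN passed the filter and neither was tested.

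CNFN (chr19:42891171-42894449), which encodes the envelope protein cornifelin, behaved otherwise and was not called. It was at 4.61, 8.11 and 9.14 CPM with NC siRNA and at 7.96, 8.62 and 6.74 CPM with BNC2 siRNA. The low value belonged to NC siRNA replicate 1, and the other NC siRNA libraries lay within or just above the range of the BNC2 siRNA libraries. The log2 fold change was 0.1 ± 0.19, and -0.17 without that library. Of the remaining envelope and filament genes, RPTN and LOR were at 0 counts in all libraries. IVL had 0, 2 and 0 counts with BNC2 siRNA and 1, 2 and 0 with NC siRNA. FLG, which encodes the precursor of the filament-bundling protein filaggrin, had 1, 1 and 0 counts with BNC2 siRNA and 1, 1 and 4 with NC siRNA.

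The most abundant S100 gene was S100A11, whose product binds annexin A1 and is itself a component of the envelope. It was at 1298, 1538 and 1900 CPM with NC siRNA and at 1188, 1074 and 961 CPM with BNC2 siRNA. The groups did not overlap, although the highest BNC2 siRNA library lay close to the lowest NC siRNA library and the NC siRNA libraries spread widely. S100A11 fell by 0.56 ± 0.1 on the log2 scale, to 68.1% of its NC siRNA level.

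S100A10 was next by level. It encodes p11, which lacks calcium binding, forms a tetramer with annexin A2 and binds plasminogen at the cell surface. It was at 330, 359 and 362 CPM with NC siRNA and at 239, 246 and 224 CPM with BNC2 siRNA. S100A10 thus fell by 0.57 ± 0.06 on the log2 scale, with all BNC2 siRNA libraries well below all NC siRNA libraries. S100A6, which encodes calcyclin, was at 179, 182 and 178 CPM with NC siRNA and at 128, 126 and 107 CPM with BNC2 siRNA. Its NC siRNA values were nearly identical, its groups were apart, and it fell by 0.58 ± 0.07.

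S100A13 and S100A4 were lower as well. S100A13, whose product takes part in the release of FGF1 and interleukin-1α by cells, was at 39.5, 46.3 and 46 CPM with NC siRNA and at 37.9, 32.4 and 33.2 CPM with BNC2 siRNA. It fell by 0.35 ± 0.09, with its nearest libraries close together. S100A4, whose product binds non-muscle myosin and is known for its association with metastasis, was at 10.0, 13.1 and 11.3 CPM with NC siRNA and at 8.89, 6.31 and 7.12 CPM with BNC2 siRNA. It fell by 0.62 ± 0.14, again without overlap.

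S100A2 was the called member that rose. It encodes a mainly nuclear S100 protein of basal keratinocytes that binds p53. It was at 18.7, 16.3 and 16.6 CPM with NC siRNA and at 21.2, 22.3 and 21.5 CPM with BNC2 siRNA (log2 fold change 0.33 ± 0.09). All BNC2 siRNA libraries were above all NC siRNA libraries, by a modest step. S100A3, which encodes a cysteine-rich protein of the hair cuticle, was at 2.31, 2.85 and 1.93 CPM with NC siRNA and at 3.43, 2.31 and 2.48 CPM with BNC2 siRNA. Its groups overlapped and it was not called (log2 fold change 0.21 ± 0.23). S100A4 and S100A3 overlap in position on the minus strand (chr1:153516089-153522612 and chr1:153519805-153521734) but share no annotated exon base.

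S100PBP, outside the complex on chr1:33282368-33324476, was at 41.1, 38.4 and 40.5 CPM with NC siRNA and at 20.3, 22.9 and 22.1 CPM with BNC2 siRNA. This gene fell by 0.88 ± 0.08 on the log2 scale, to 54.5% of its NC siRNA level, with tight groups. The gene of its partner, S100P, was among the members that were not tested.

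**Figure D2:**
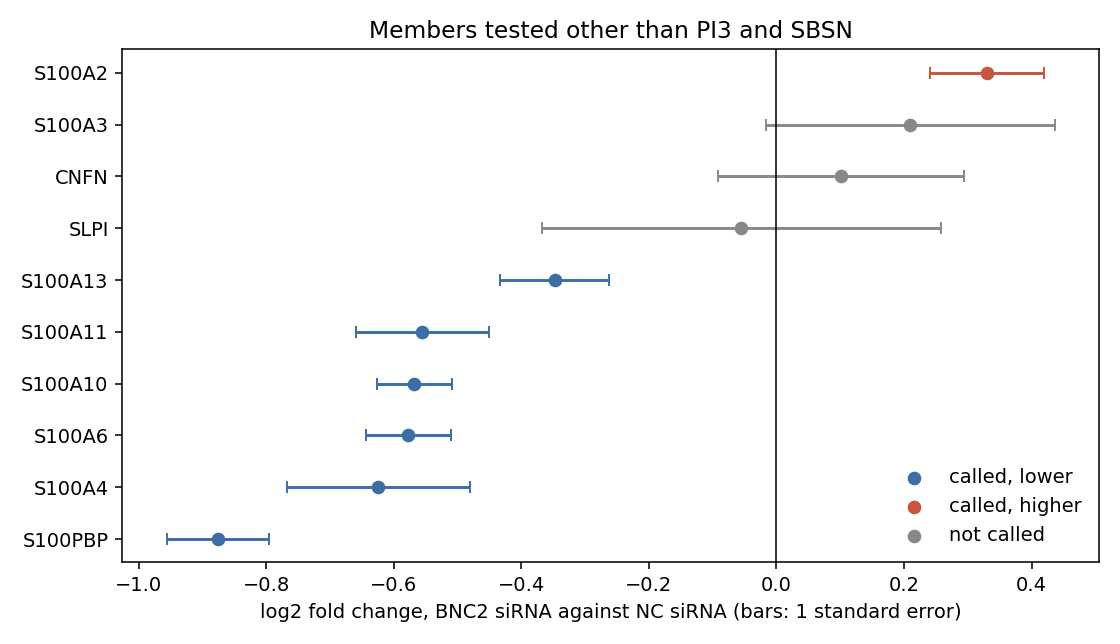
Log2 fold change between BNC2 siRNA and NC siRNA (points) with 1 standard error (bars) for the 10 members tested other than PI3 and SBSN, coloured by call. S100PBP lies lowest at -0.88, 4 S100 genes lie between -0.62 and -0.56, S100A13 is at -0.35, and S100A2 is called on the higher side at 0.33.

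Summed over all S100 genes, the transcripts made up 1878, 2159 and 2516 CPM with NC siRNA and 1627, 1510 and 1357 CPM with BNC2 siRNA. S100A11 held most of this sum, with 69.1–75.5% of S100 counts in the NC siRNA libraries and 70.9–73% in the BNC2 siRNA libraries. The share of S100A10 was 14.4–17.6% and 14.7–16.5%, and that of S100A6 7.08–9.52% and 7.87–8.34%. For these 3 abundant genes the shares of both groups overlapped. The share of S100A2 was 0.66–0.998% with NC siRNA and 1.3–1.58% with BNC2 siRNA, without overlap. S100A3 likewise held 0.0765–0.132% with NC siRNA and 0.153–0.211% with BNC2 siRNA. Since S100A11, S100A10 and S100A6 fell, these shares rise also for a gene whose own level is unchanged.

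To compare genes with each other, the CPM were divided by the length in kb of the canonical GENCODE transcript. With NC siRNA, S100A11 was at 2306–3375 CPM per kb, S100A10 at 492–539, S100A6 at 410–420 and S100A13 at 82.8–97.1, each clear of the next. PI3 followed at 34.0–43.8 CPM per kb, above S100A4 at 19.5–25.5 and S100A2 at 16.7–19.2. CNFN, at 8.66–17.2 CPM per kb, overlapped both its neighbours in this order, S100A2 above and S100PBP (9.1–9.74) below. SBSN (4.86–5.53), S100A3 (2.59–3.85) and SLPI (1.97–2.02) closed the order without overlap. With BNC2 siRNA the first 4 genes kept their order, S100A2 (21.7–22.9 CPM per kb) came next, above CNFN (12.7–16.2) and S100A4 (12.3–17.3), which overlapped, and PI3 and SBSN were last at no more than 0.205 and 0.0299 CPM per kb.

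The remaining S100 genes were near or at the floor. Of the 21 S100 genes, 7 were tested (5 lower, 1 higher and 1 not called, where 72.9% of all genes tested were called), 8 were at 0 counts in every library, 3 had 1 to 9 counts in all and 3 had at least 10. The calgranulin gene S100A9 had 1, 6 and 0 counts with NC siRNA and none with BNC2 siRNA, and its partner S100A8 had 1, 0 and 0 and none. S100A1, best known from muscle, had 3, 6 and 9 counts with NC siRNA and 10, 3 and 3 with BNC2 siRNA, a ratio of BNC2 siRNA to NC siRNA of 0.917 (95% exact counting interval 0.437 to 1.9). S100A14 had 1, 2 and 0 against 1, 5 and 1 counts (ratio 2.41, 0.549 to 14.4), and S100A5 had 3, 1 and 2 against 4, 1 and 2 (ratio 1.2, 0.346 to 4.33). None of these 3 intervals excluded equal levels, and each also allowed changes of close to 2-fold or more.

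TGM1 encodes the membrane-bound transglutaminase of keratinocytes. It had 4, 3 and 5 counts with NC siRNA and 11, 6 and 10 with BNC2 siRNA. The groups did not overlap, and the ratio was 2.32 with a 95% exact counting interval of 1.14 to 5.03, which covers counting error but not the spread between libraries. At these levels TGM1 did not pass the filter and was not tested. Fitted without a filter, TGM1 was not called (log2 fold change 1.22 ± 0.63).

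The SPRR and LCE genes were close to silent in both groups. Of the 11 SPRR genes 8 were at 0 counts in every library, and the family as a whole had 6 counts in the NC siRNA libraries and 1 in the BNC2 siRNA libraries. Of the 18 LCE genes 14 were at 0, and the family had 10 counts, all in NC siRNA libraries. Of these, LCE2A held 7, from 2 of the 3 NC siRNA libraries (0, 5 and 2). Together 32 of the 61 members were at 0 in all 6 libraries and a further 13 had 1 to 9 counts, too few to pass the filter.

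The epidermal differentiation complex with its flanking S100 genes spans 1.65 Mb on GRCh37 (chr1:151955391-153604515) and held 50 of the members. The members tested lay at its ends. Between S100A11 and S100A6 lay 1.49 Mb with 52 genes of the table, 39 of them members, of which 28 were at 0 in all libraries. These 39 members had 33 counts in the NC siRNA libraries together and 5 in the BNC2 siRNA libraries. The gene tested in this stretch was TCHH, which encodes the hair follicle protein trichohyalin and is not a member. TCHH was at 12.8 ± 1.34 CPM with NC siRNA and 5.09 ± 0.884 with BNC2 siRNA (SD, n = 3), with a log2 change of -1.33 ± 0.14 with an adjusted p of 3.1e-07 in edgeR's quasi-likelihood test. Of the 13 genes of the complex that are not members, TCHH was the one tested.

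**Figure D3:**
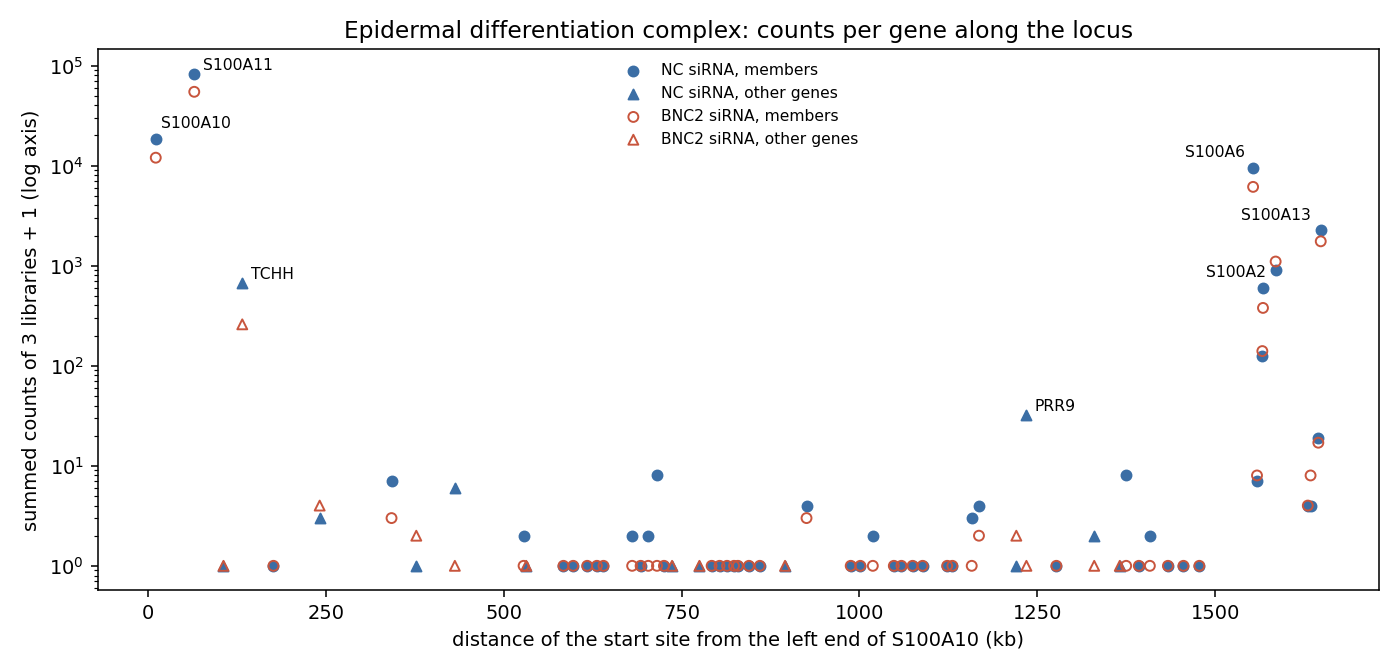
Counts per gene, summed over the 3 libraries of a group plus 1 (log axis), along the epidermal differentiation complex, against the distance of the start site from the left end of S100A10 in kb. Filled blue symbols are NC siRNA and open red symbols BNC2 siRNA, circles are members and triangles other genes, and the 1.49 Mb between S100A11 and S100A6 holds TCHH as its sole gene tested.

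PI3 and SLPI bound 0.0797 Mb of chromosome 20q13, in which the 2 other genes of the table were not tested. Of a wider list of 20 genes, made up of WAP-domain genes and genes near this cluster, 19 were in the table and 2 were tested. SDC4, which encodes the heparan sulphate proteoglycan syndecan-4, was at 102 ± 4.07 CPM with NC siRNA and 37.7 ± 1.26 with BNC2 siRNA (log2 fold change -1.43 ± 0.07, adjusted p = 8.4e-12 in edgeR's quasi-likelihood test). MATN4, which encodes the matrix protein matrilin-4, was at 1.44 ± 0.175 CPM with NC siRNA and 0.606 ± 0.147 CPM with BNC2 siRNA (log2 fold change -1.22 ± 0.32), and was tested only because its NC siRNA libraries passed the filter. SBSN and CNFN lie 6.88 Mb apart on chromosome 19q13, a distance that holds 200 other genes of the table. Of these 129 were tested, with 46 higher, 42 lower and 41 not called, a share called of 68.2% against 72.9% over the whole table.

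RefSeq promoter windows (250 bases before to 50 bases after the start site, GRCh38.p14) were found by symbol for 51 of the 61 members. They gave 61 windows, 15 of them from 10 of the 12 members tested. PI3 and SLPI were the members tested without a window, so their promoters were not examined. The letters TATAAA on either strand were in 29 of the 61 windows (47.5%), against 11.5% of all 35116 promoter windows. The members that were not tested accounted for most of these, with 27 of 46 windows (58.7%), whereas the members tested had 2 of 15 (13.3%), namely S100A4 at -31 and S100A13 at -29 from the start site. Among the windows of all genes tested, 791 of 12959 (6.1%) held these letters. In 23 member windows (37.7%) the letters began between -32 and -28, a range chosen after the positions were seen, against 2.27% of all windows. The promoters of S100A7 and S100A4 shown above are of this kind, and that of S100A10 has neither marked motif. Many SPRR, LCE and S100 genes are paralogues, so their promoters are not independent.

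TGANTCA, in which N is any base, covers the AP-1 consensus (C or G at N) and letters outside it (A or T at N). It occurred on either strand in 16 of the 61 member windows (26.2%) against 7.71% of all windows and 5.13% of the windows of all genes tested. Members tested (4 of 15, 26.7%) and not tested (12 of 46, 26.1%) had it about equally often. SBSN held 2 matches, at -173 and -71, S100A2 1 at -52, S100A3 1 at -225 and S100PBP 1 at -149. The 4 genes were thus nearly lost, higher, not called and lower with BNC2 siRNA. AACNGGTT, the letters of grainyhead-like factors, were in 4 member windows (6.56%, against 1.73% of all). CACGTG was in 5 (8.2%, against 7.26%) and GGGTGTGG in 1 (1.64%, against 3.28%). None of these windows was from a member tested, where PI3 and SLPI had no window. A match describes the letters in these windows and not binding.

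Regulators of epidermal differentiation, mostly transcription factors, were looked at as a list of 31 genes, of which 20 were tested. In BNC2 siRNA cells 12 were lower, 4 were higher and 4 were not called, beside 72.9% called over all genes. Their median change was -0.34 on the log2 scale. CEBPA, which encodes a C/EBP factor of keratinocyte differentiation, was at 9 ± 0.71 CPM with NC siRNA and 0.771 ± 0.155 with BNC2 siRNA (log2 fold change -3.53 ± 0.2). It passed the filter through the NC siRNA libraries alone, so no p is given. CEBPB went from 156 ± 4.98 to 32 ± 0.803 CPM (-2.29 ± 0.06, adjusted p = 2.4e-14 in edgeR's quasi-likelihood test), while its relative CEBPD went the other way, from 17.8 ± 2.98 to 46.6 ± 5.2 CPM (1.39 ± 0.11, adjusted p = 8.3e-09, edgeR). These 3 genes of 1 family thus differed in direction.

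KLF5, which encodes a Krüppel-like factor of proliferating epithelium, fell from 22.1 ± 0.916 to 4.17 ± 0.096 CPM (log2 fold change -2.41 ± 0.11, adjusted p = 1e-11, edgeR). TP63, which encodes the p53 relative that defines stratified epithelium, was low in both groups and went from 2.48 ± 0.609 to 0.726 ± 0.184 CPM (-1.75 ± 0.29), and likewise passed the filter through the NC siRNA libraries alone. TFAP2A, which encodes AP-2α, fell from 228 ± 5.41 to 83.5 ± 2.01 CPM (-1.45 ± 0.06, adjusted p = 1.2e-12, edgeR). GRHL2 and GRHL3, grainyhead-like genes of surface epithelia, were not tested, with totals of 1 and 5 counts under NC siRNA and of 3 and 3 under BNC2 siRNA. Their relative GRHL1 was tested and fell from 3.79 ± 0.242 to 1.46 ± 0.0614 CPM (-1.37 ± 0.2, adjusted p = 1.1e-05, edgeR). PRDM1, another regulator of the list, rose from 9.25 ± 1 to 21 ± 2.64 CPM (1.18 ± 0.12, adjusted p = 1.2e-07, edgeR).

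**Figure D4:**
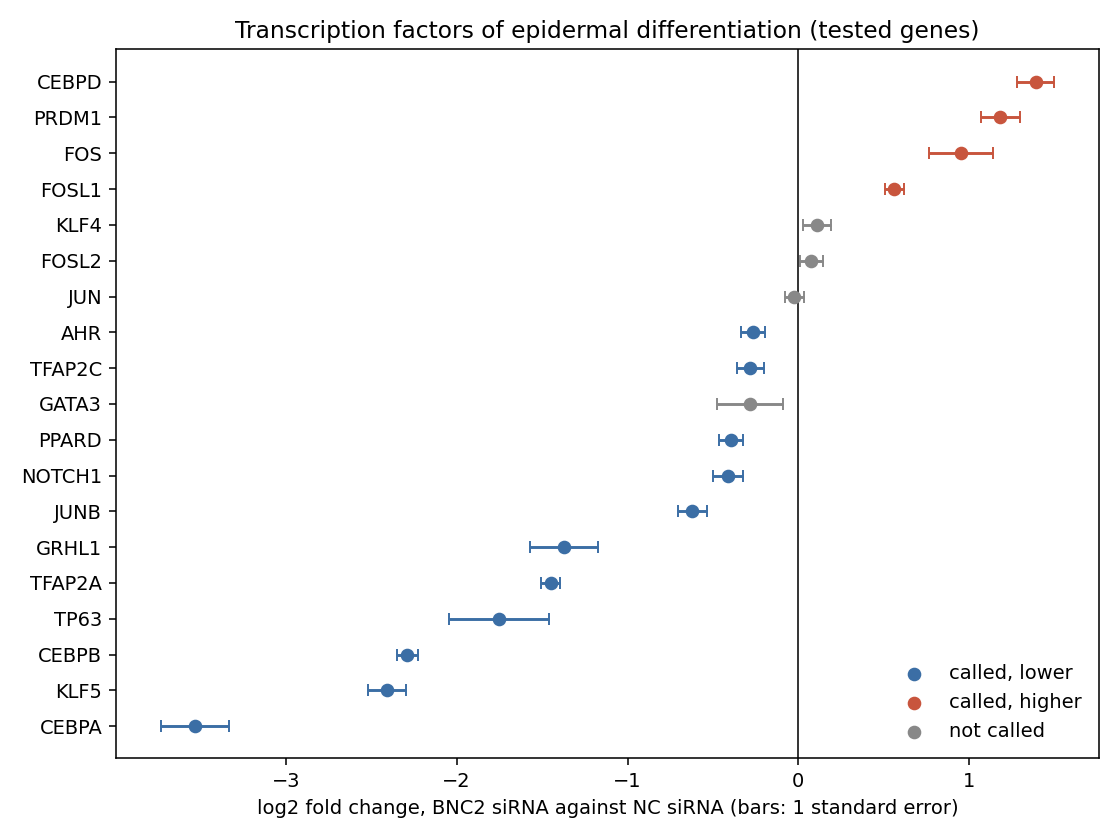
Log2 fold change between BNC2 siRNA and NC siRNA (points) with 1 standard error (bars) for 19 of the 20 tested regulator genes of epidermal differentiation, coloured by call. CEBPA lies lowest at -3.53 and CEBPD highest at 1.39, with 11 of the genes drawn called lower and 4 higher.

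Of 19 receptors, annexins and other partners of S100 proteins, 16 were tested, 6 higher, 7 lower and 3 not called (median log2 fold change -0.07), where 72.9% of all genes tested were called. ANXA2, the annexin that S100A10 binds, was not called, at 844 ± 66.2 CPM with NC siRNA and 886 ± 61 with BNC2 siRNA (log2 fold change 0.07 ± 0.07, adjusted p = 0.35 in edgeR's quasi-likelihood test), and its value was -0.005 with libraries scaled by total counts alone. Its S100 partner S100A10 was lower in the same libraries. AGER, which encodes RAGE, a receptor of released S100 proteins, rose from 2.09 ± 0.21 to 5.07 ± 1.03 CPM (1.29 ± 0.2, adjusted p = 2.2e-05, edgeR), and ANXA6 rose from 126 ± 2.9 to 292 ± 9.59 CPM (1.21 ± 0.06, adjusted p = 8.4e-12, edgeR). CD36, which encodes a scavenger receptor, was at 3.06 ± 0.525 CPM (160 counts) with NC siRNA and 0.0957 ± 0.0884 CPM (5 counts) with BNC2 siRNA, and passed the filter through the NC siRNA libraries alone. SIRPA, which encodes an inhibitory membrane receptor, fell from 186 ± 10.9 to 66.5 ± 3.62 CPM (-1.48 ± 0.07, adjusted p = 5.8e-12, edgeR).

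Of 34 further genes of the cornified envelope and its assembly, 7 were tested, 3 higher, 3 lower and 1 not called, again beside 72.9% called over all genes. CSTB, which encodes cystatin B, the widely expressed relative of the nearly silent CSTA, fell from 2301 ± 197 to 617 ± 30.7 CPM (log2 fold change -1.9 ± 0.07, adjusted p = 4.6e-13 in edgeR's quasi-likelihood test). ALOXE3, which encodes an epidermal lipoxygenase of the lipid envelope, was at 1.64 ± 0.365 CPM (85 counts) with NC siRNA and 0.135 ± 0.0826 CPM (7 counts) with BNC2 siRNA, and passed the filter through the NC siRNA libraries alone. TGM2, which encodes the widely expressed tissue transglutaminase, rose from 11.3 ± 0.555 to 35.2 ± 4.33 CPM (1.64 ± 0.1, adjusted p = 4.4e-10, edgeR). DSP, which encodes desmoplakin, rose from 1.17 ± 0.108 to 2.67 ± 0.473 CPM (1.19 ± 0.24, adjusted p = 0.00029, edgeR). Unlike TGM1, TGM2 was thus measured well above the filter in both groups.

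Of 8 serpin genes of squamous epithelium, 2 were tested. SERPINB2 had 173 counts with NC siRNA and 2 with BNC2 siRNA, a ratio of 83.9 (95% exact counting interval 22.9 to 698). Like PI3 and SBSN, SERPINB2 passed the filter through the NC siRNA libraries alone, and its interval covers counting error only. SERPINB7 rose from 7.06 ± 0.572 to 21.3 ± 1.2 CPM (log2 fold change 1.59 ± 0.11, adjusted p = 9.7e-10 in edgeR's quasi-likelihood test). SERPINB3 and SERPINB4, the squamous cell carcinoma antigen genes, had 1 to 2 counts in each group.

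Markers of other cells were at low levels. Of 10 keratinocyte markers 3 were tested, and KRT1, DSG3 and LGALS7 were at 0. Their summed level was 26–28.5 CPM with NC siRNA and 24.5–26.2 with BNC2 siRNA, most of it KRT10 (20.6 ± 1.09 and 18.9 ± 1.15 CPM, not called). The other two tested were called in opposite directions, TP63 lower and COL17A1 higher (3.97 ± 0.525 to 5.66 ± 0.388 CPM). Of 10 epithelial markers 1 was tested, and EPCAM and ESRP1 were at 0. The epithelial sum was 4.57–7.09 against 1.92–2.35 CPM and followed KRT18 (4.63 ± 0.941 to 0.455 ± 0.179 CPM), with few counts in the others. KRT8 had 11 counts with NC siRNA and 3 with BNC2 siRNA, KRT19 10 and 1, CLDN4 11 and 0, CLDN7 21 and 26, and ESRP2 17 and 53. Of 10 myeloid markers 2 were tested, MPO, AIF1 and TYROBP were at 0, and the sum was 2.91–3.43 against 3.37–3.88 CPM. The pair tested were called in opposite directions, ITGAM higher (0.956 ± 0.0985 to 2.14 ± 0.254 CPM) and CD14 lower (1.7 ± 0.322 to 0.635 ± 0.11 CPM), of which CD14 passed the filter through the NC siRNA libraries alone. Of 10 mesenchymal markers 9 were tested, 6 higher, 1 lower and 2 not called, beside 72.9% called over all genes. Their sum was 7974–8040 CPM with NC siRNA and 11490–11940 with BNC2 siRNA, and most of the difference was COL1A2 (1183 ± 23 to 4635 ± 73.2 CPM). TWIST1 (25.2 ± 1.23 to 73.1 ± 3.16 CPM) and CDH2 (152 ± 4.03 to 391 ± 5.08 CPM) were also at least 2-fold higher. SPARC was lower (2345 ± 16.5 to 1634 ± 54.2 CPM), and LUM and THY1 were not called. The part of these differences in the members' values was not tested.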

How the data were processed

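Single-end reads of poly(A)-selected RNA were mapped by the authors to hg19 (GRCh37) using STAR 2.6.1d and the iGenomes UCSC annotation. The deposited values are raw counts per gene from the reverse-strand column. Library totals ran from 16093978 to 18246254. Reads counted for no single gene (unmapped, multimapping, outside genes or ambiguous, together 37.7–41.1% of a library) were left out. Near-identical copies lose multimapping reads, which can lower the counts of SPRR and LCE genes and of any other gene with such a copy, listed markers included.

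Genes with over 1 CPM in at least 3 libraries were kept (12186), libraries were scaled with TMM, and groups were compared with edgeR 4.0.16 (R 4.3.3), quasi-likelihood test, Benjamini-Hochberg adjustment, 3 biological replicates against 3. Ratios of summed counts, given for near-lost genes and members not tested, carry exact intervals for counting error only. On simulated counts with 200 genes changed 2-fold, 99.5% were recovered, with 11 false calls. In the data 72.9% of genes tested were called and most called members changed less than 2-fold, which this simulation does not cover. DESeq2 1.42.0, other scalings, filters and strands, a replicate block and leaving out each library were tried. Members and lists were chosen with earlier results of these data known. Named were all members tested, members not tested with at least 10 counts, and per list up to 6 called genes with at least 2-fold change. Other genes were named after their values were seen, among them GRHL1, PRDM1, ANXA1, ANXA2, GRHL2, GRHL3, JUN, FOSL2, CSTA, SERPINB3, SERPINB4, KRT10, COL17A1, ESRP2, CLDN4, CLDN7, KRT8, KRT19, SPARC, LUM, THY1, S100A8, S100A9, IVL, FLG, LCE2A and PRR9. 1 listed gene is not reported here. Positions come from GENCODE release 44 on GRCh37, and promoters from RefSeq on GRCh38.p14.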

Additional observations from a re-analysis of the deposited data

How the results depend on the processing

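Under the 14 alternatives, S100A2 remained the 1 member called higher. The number called lower lay between 6 and 10. It was 6 to 8 when single libraries were left out, since PI3 and SBSN then fail the filter whenever an NC siRNA library is missing, and 10 without a filter, which adds LCE2A and S100A9 on 7 counts each in the NC siRNA libraries against 0, in a fit that called 9662 genes. Of the S100A9 counts, 6 came from 1 library. No member called in the fit reported changed direction or lost its call under an alternative that tested it. The median log2 fold change of the members tested was -0.64 to -0.38, and -0.595 to -0.377 with single libraries left out. The highest value came without NC siRNA replicate 3 and rests on 10 members tested. Of all genes, 8084 to 9662 were called, 8084 to 8590 with single libraries left out.

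With the replicate block, 1 member was called higher and 8 lower, the median was -0.555 and 8399 genes were called. Libraries of the same number did not deviate together (correlations -0.208, -0.081 and -0.13). The labels give no pairing beyond the number, and these correlations cannot show whether a batch was shared.

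Values not called that changed sign were, without a filter on low counts, JUN (0.006) and THY1 (0.025), with filterByExpr THY1 (0.005), and with libraries scaled by total counts ANXA2 (-0.005). With single libraries left out, CNFN ranged from -0.171 (without NC siRNA replicate 1) to 0.272, SLPI from -0.264 to 0.208 (without BNC2 siRNA replicate 3), FOSL2 from -0.011 (without NC siRNA replicate 3) to 0.114, ANXA2 from -0.017 (without NC siRNA replicate 1) to 0.114, and THY1 from -0.074 to 0.029. THY1 was 0.029, 0.028 and 0.003 without BNC2 siRNA replicates 2 and 3 and NC siRNA replicate 3. The cause was not tested. Of 989 values of single genes under alternatives, 963 kept direction and side of the threshold, 13 lost the call and 2 gained it. ANXA1 accounts for 9 of the losses. Of 280 counts of calls by list, 258 stayed within 1.5 times the value reported. Like PI3 and SBSN, TP63, CEBPA, CD36, ALOXE3, MATN4, SERPINB2, KRT18 and CD14 fail the filter, and are not tested, whenever an NC siRNA library is left out. CEBPA, TP63, CD36, ALOXE3 and MATN4 kept direction and call with no filter. Depth limits what can be said of the 49 members not tested, since 3 counts correspond to 0.168–0.191 CPM.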

Other observations

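PRR9, a proline-rich gene within the epidermal differentiation complex that is not a member by its symbol, had 31 counts in the NC siRNA libraries and 0 in the BNC2 siRNA libraries. It did not pass the filter and was not tested, and it was chosen after its counts were seen. Apart from TCHH, it had more NC siRNA counts than any other gene between S100A11 and S100A6.

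At FLG, reads on the strand opposite to the gene outnumbered those on its own strand in every library. The opposite strand held 26, 26 and 18 reads with NC siRNA and 27, 42 and 24 with BNC2 siRNA, against 1, 1 and 4 and 1, 1 and 0 on the strand of FLG. The GENCODE annotation places the antisense gene FLG-AS1 there. The ranges of the groups overlapped.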
